A study of Mus musculus with 16 samples.

Results

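The mRNAs described here are those of mouse zinc finger protein genes whose symbol is Zfp followed by digits, with Zfp36, an RNA-decay factor of another class, left out. Of 373 such genes among the 55414 genes counted, 186 had a mean of at least 5 CPM (counts scaled to a common total of gene counts) over the 16 count files, and these 186 are the members. They were chosen by that mean CPM, which is given as a description only. Just inside the minimum stood Zfp2 at 5.01 CPM and Zfp951 at 5.07 CPM, and just outside it Zfp382 at 4.99 CPM and Zfp57 at 4.96 CPM. For 24 members the mean falls below the minimum once their highest group is left out. Per the labels, the study followed RNA lifetime in LT-HSCs, the long-term haematopoietic stem cells of mouse bone marrow, with Nat10 deficiency or wild type (WT). Nat10 is the acetyltransferase that places ac4C, an acetyl mark on cytidine, in RNA. The labels do not say how Nat10 was removed. Lineage-depleted marrow of both genotypes was cultured with stem cell factor, thrombopoietin and heparin, 5 µM actinomycin D was added to stop transcription, and stem cells were sorted at 0, 1, 3 and 5 h. This gives 8 groups of 2 files, labelled Nat10-deficient at 0, 1, 3 and 5 h and WT at 0, 1, 3 and 5 h, and no group without the drug at a later time. A sort at 4 h that the protocol also lists is not analysed here. The titles of the samples, in place of LT-HSCs, say 32D, which is a myeloid cell line, and which cells were used is not settled here. The same titles write the Nat10-deficient genotype as Nat10-/-.

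Most Zfp genes encode C2H2 zinc finger proteins. In such a finger a pair of cysteines and a pair of histidines hold a zinc ion, and tandem fingers read a DNA sequence, with some families reading RNA instead. Many also carry a KRAB domain, which recruits the corepressor Trim28 and through it the histone methyltransferase Setdb1 and heterochromatin proteins, above all at retroelements and imprinted genes. Their mRNAs are known as short-lived, as are those of many other transcription factors, and AUUUA elements in a 3′ untranslated region (UTR) are a known feature of unstable mRNAs. After actinomycin D no new mRNA is made, so a level that falls relative to other mRNAs marks a message that leaves faster than they do, provided the sorted cells stay alike.

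A stretch of coding sequence found in most of the members is shown first, although the members were chosen by symbol and mean CPM. The 4 stretches hold 1 finger and the linker to the next, 81 bases each, with the codons of the zinc-binding cysteines and histidines in capitals, read 5′ to 3′ on the coding strand from the GENCODE vM21 transcripts of build GRCm38. Zfp422, Zfp263 and Zfp266 are 3 of the 10 members with the highest mean CPM, and Zfp597 fell steeply in both genotypes.
Zfp422: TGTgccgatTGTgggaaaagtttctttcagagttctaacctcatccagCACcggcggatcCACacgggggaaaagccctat
Zfp263: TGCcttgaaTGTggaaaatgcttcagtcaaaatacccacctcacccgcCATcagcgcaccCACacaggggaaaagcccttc
Zfp266: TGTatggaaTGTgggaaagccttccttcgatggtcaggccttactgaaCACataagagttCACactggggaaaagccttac
Zfp597: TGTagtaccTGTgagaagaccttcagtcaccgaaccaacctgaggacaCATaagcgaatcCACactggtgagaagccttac
Between these 4 stretches 59.3% to 69.1% of the bases were the same. A finger followed by this linker was found in 125 of the 185 members with a coding transcript. The members held a median of 10 fingers, Zfp142 held the most with 37, and Zfp330, a nucleolar protein, had no match to the pattern. A KRAB pattern was found in 74 members and not in 111. By position, 44 members (23.7%) lay on chromosome 7 and 24 (12.9%) on chromosome 17, against 7.09% and 5.04% of the 10053 genes with a mean of at least 5 CPM.

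Total counts ranged over 13516675 to 17274128 per file labelled Nat10-deficient and 9142413 to 14000072 per file labelled WT. Nat10 mRNA stood at 72.2 to 151 scaled CPM in libraries labelled Nat10-deficient and at 35.1 to 83.6 in libraries labelled WT. Both files labelled Nat10-deficient were above both WT files at 0, 3 and 5 h, and below them at 1 h, with 72.2 and 76.4 against 78.1 and 83.6. Scaled CPM are CPM divided by the library's TMM factor (trimmed mean of M values), the scale of the levels per file below. A count over a whole gene shows neither the removal of an exon nor an exchange of labels, and an exchange would turn every direction between genotypes given here. The 2 files of every group name 1 alignment in their headers and differed by 1.43 to 1.81 times counting noise (chi-square per degree of freedom), so the p-values measure how far the files of a group differ, which may be technical. ERCC spike-ins made up 0.0221% to 0.129% of counts where Nat10 deficiency is labelled and 1.79% to 2.92% in WT. Immunoglobulin genes took 4.31% to 27.5% and 3.91% to 66.7% of gene counts, the most in WT at 5 h. The summed level of 8 plasma and B cell markers was 45464, 62104, 206971 and 27273 scaled CPM at 0, 1, 3 and 5 h in libraries labelled Nat10-deficient, and 22483, 186178, 524977 and 1056611 in libraries labelled WT, where the TMM factors of 0.434 and 0.440 at 5 h raise every scaled level. That of 10 stem cell markers, all with counts, was 925, 874, 798 and 324 scaled CPM in libraries labelled Nat10-deficient, and 1928, 1772, 899 and 1107 in libraries labelled WT. Mast cell and basophil markers summed to 397, 844, 4520 and 1691 scaled CPM in libraries labelled Nat10-deficient and 119, 996, 739 and 711 in libraries labelled WT, and erythroid markers to 1718, 2434, 2606 and 6716, and 878, 755, 946 and 1696. The part these mixtures played in the results was not tested, and in such bulk samples fewer cells of a type and less RNA per cell cannot be told apart.

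The members were mRNAs of moderate level. Their median mean level was 11.9 CPM, 53 members reached 20 CPM, and the highest was Zfp207 at 214 CPM. Per kilobase of exon, Zfp706 (38.7 CPM per kb), Zfp422 (35.2) and Zfp207 (32.1) led the members, whose median was 2.34. All the members together took 0.559% and 0.560%, 0.461% and 0.461%, 0.264% and 0.259%, and 0.273% and 0.277% of gene counts at the 4 times in the files labelled Nat10-deficient. In the files labelled WT they took 0.640% and 0.638%, 0.443% and 0.450%, 0.192% and 0.193%, and 0.114% and 0.119%. With immunoglobulin genes left out of the total, the share at 5 h was 0.285% and 0.289% in libraries labelled Nat10-deficient and 0.342% and 0.353% in libraries labelled WT, against 0.601% and 0.602%, and 0.666% and 0.664%, at 0 h. The zinc finger share was thus lower at 5 h than at 0 h in every file of both genotypes, and the immunoglobulin counts moved its size in WT.

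After transcription was stopped, zinc finger mRNAs fell relative to other mRNAs in both genotypes. The slope over 0, 1, 3 and 5 h, in log2 per hour and relative to the other genes, was lower in 150 of the 186 members in libraries labelled Nat10-deficient, and higher in 13. Over all 25081 genes tested, 31.8% were called lower and 29.0% higher, and over genes of at least 5 CPM 48.4% were called lower. In libraries labelled WT, 127 members fell and 16 rose, against 31.2% and 28.1% of all genes tested and 52.8% falling among genes of at least 5 CPM. The median slope of the members was -0.22 in libraries labelled Nat10-deficient and -0.17 in libraries labelled WT, against -0.03 and -0.06 for genes of at least 5 CPM. The members' medians were -0.26 in both genotypes without 5 h, with 137 members falling in each genotype. In both genotypes 107 members fell, which is 71.3% of those falling in the libraries labelled Nat10-deficient, 84.3% of those falling in WT and 57.5% of all members. Of all genes tested, 17.6% fell in both genotypes, and of genes of at least 5 CPM 33.9%. Another 31 members fell in the libraries labelled Nat10-deficient and were not called in WT, and 14 the other way round. In 12 members the slope was called lower under the Nat10-deficient label and higher in WT, and in 6 the other way round. Each gene was tested by edgeR's quasi-likelihood test with Benjamini-Hochberg adjustment over all genes at 0.05. When the files of each group were summed to 8 libraries, only 1 and 7 members were called lower, the first in libraries labelled Nat10-deficient and the others in WT, and none higher, with 56 members in each at an unadjusted p under 0.05.

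The members' median level moved downward at every step up to 3 h. It was 14.3, 10.9, 7.77 and 6.39 scaled CPM at 0, 1, 3 and 5 h in libraries labelled Nat10-deficient, and 14.2, 11.4, 9.05 and 9.81 in libraries labelled WT. The numbers of members at 5 scaled CPM or more were 171, 166, 143 and 112 in libraries labelled Nat10-deficient, and 173, 169, 141 and 133 in libraries labelled WT. Relative to 0 h, the median log2 level of the members was -0.30, -0.76 and -0.97 at 1, 3 and 5 h in libraries labelled Nat10-deficient, where genes of at least 5 CPM had -0.02, -0.15 and -0.15. In libraries labelled WT it was -0.28, -0.76 and -0.75, where genes of at least 5 CPM had -0.14, -0.41 and -0.28. Of the members, 112 had their highest level at 0 h in libraries labelled Nat10-deficient, and 100 in libraries labelled WT. The share of other genes with their highest level at 0 h was not counted, so these numbers are a description only. On a list of 42 immediate-early and other AU-rich short-lived mRNAs, which are no members, 42 fell in libraries labelled Nat10-deficient and 39 in WT, with median slopes of -0.72 and -0.56. The zinc finger mRNAs thus fell less steeply at the median than this list of the shortest-lived messages.

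**Figure D1:**
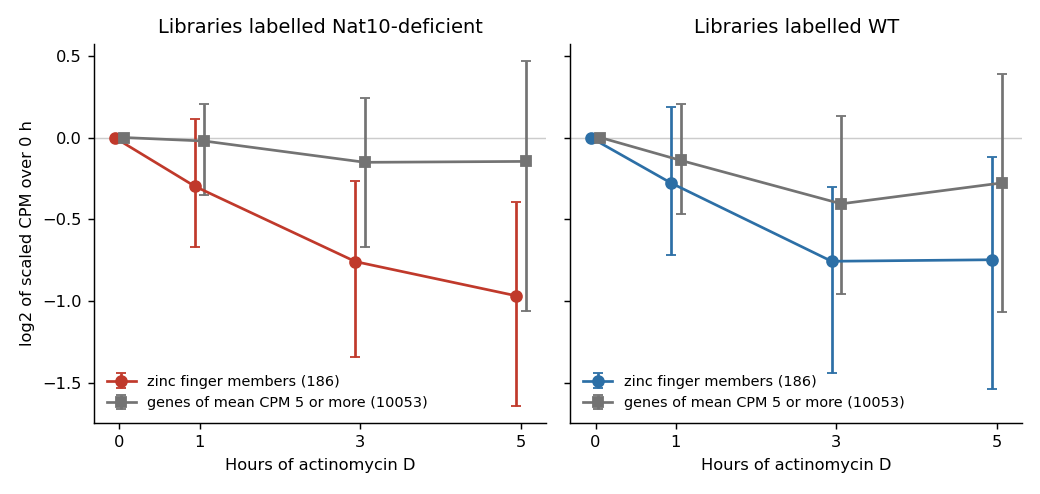
Median log2 level of the 186 members (circles) and of the 10053 genes of at least 5 CPM (squares) relative to 0 h, by hours of actinomycin D, for libraries labelled Nat10-deficient (left) and WT (right). Bars are the quartiles over genes, and the members lie below the other genes at 1, 3 and 5 h in both genotypes, at -0.97 against -0.15 at 5 h on the left and at -0.75 against -0.28 on the right.

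Scaled on the ERCC spike-ins in place of TMM factors, so that a slope reads as loss per unit of spike-in, all 186 members fell where Nat10 deficiency is labelled and 185 in WT, beside 71.3% and 57.4% of all genes tested. The median slope of the members was -0.71 log2 per hour in libraries labelled Nat10-deficient and -0.56 in WT, which correspond to half-lives of 1.41 h and 1.79 h. The quartiles of the members' half-lives were 1.22 and 1.72 h in libraries labelled Nat10-deficient and 1.41 and 2.39 h in libraries labelled WT. For all genes tested the median half-lives were 2.08 h and 2.75 h. The median half-life of the members was thus shorter than that of all genes in both genotypes on this scale too. Per unit of spike-in, the members' median log2 level at 5 h over 0 h was -3.76 in libraries labelled Nat10-deficient and -2.97 in WT. For genes of at least 5 CPM it was -2.86 and -2.49. These half-lives take the spike-in per cell as constant, which was not tested. Its share of counts under the Nat10-deficient label went from 0.0226% and 0.0221% at 0 h to 0.129% and 0.124% at 5 h. The spike-in share differs so far between the genotypes that it moves the median gene by 6.24 log2 units between them at 0 h, so no level between genotypes is read from it.

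Several members with a high level at 0 h fell steeply in both genotypes. Zfp212, which encodes a protein with 4 fingers (chr6:47897410-47909573 on GRCm39), had 36.6 and 36.9, 14 and 11.2, 7.61 and 5.98, and 1.80 and 1.65 scaled CPM at the 4 times in libraries labelled Nat10-deficient. In libraries labelled WT it had 32.5 and 33.0, 15.6 and 15.8, 7.53 and 6.38, and 6.41 and 6.20. The groups at 0 and 5 h did not overlap in either genotype, and at 5 h the levels in libraries labelled Nat10-deficient were below those in WT. Its slope was -0.82 ± 0.03 log2 per hour (SE, adjusted p = 2.41e-73) in libraries labelled Nat10-deficient and -0.47 ± 0.03 (adjusted p = 2.73e-33) in WT. The slopes were -0.76 and -0.72 without 5 h, and their difference of -0.04 did not pass the test. With the ERCC scale its half-life was 0.767 h and 1.16 h.

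Zfp655, Zfp281 and Zfp597 fell in both genotypes as well. Zfp655 (chr5:145168525-145184112) had 89.5 and 91.0, 44.8 and 47.8, 19.7 and 19.2, and 21.7 and 25 scaled CPM at the 4 times in libraries labelled Nat10-deficient, and 88.1 and 87.9, 33.9 and 33.4, 14.2 and 11.5, and 8.27 and 8.89 in libraries labelled WT. It started at nearly the same level in both genotypes and was lower in WT from 1 h on, with slopes of -0.39 ± 0.01 and -0.65 ± 0.02 log2 per hour (difference 0.26 ± 0.03, adjusted p = 1.03e-13). Without 5 h these slopes were -0.72 and -0.89, and the difference was 0.17. Zfp281, a factor known from the control of pluripotency (chr1:136552639-136557791), had 56.3 and 52.8, 31.3 and 30.3, 20.4 and 19.5, and 10.6 and 9.14 scaled CPM in libraries labelled Nat10-deficient, and 52.7 and 51.4, 31.4 and 33.9, 21.9 and 20.4, and 0.675 and 1.45 in libraries labelled WT. The genotypes kept close to each other up to 3 h and parted at 5 h. Its slopes were -0.46 ± 0.02 and -1.06 ± 0.04, and their difference of 0.60 ± 0.06 (adjusted p = 1.62e-17) was -0.04 without 5 h, where the WT slope was -0.41. Zfp597 (chr16:3676185-3702425) fell with a slope of -0.48 in both genotypes (SE 0.03 and 0.04, adjusted p = 2.90e-45 and 6.37e-27), to 5.53 and 4.63 scaled CPM at 5 h in libraries labelled Nat10-deficient and 4.39 and 4.34 in libraries labelled WT, against 26.8 and 25, and 20.9 and 22.3, at 0 h. Without 5 h its slopes were -0.90 and -0.76. Zfp597 and Zfp655 were singled out after their values were seen.

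Some steep slopes belonged to members of known function. Zfp521, a multi-finger factor of haematopoietic progenitors, fell with slopes of -0.65 ± 0.04 log2 per hour in libraries labelled Nat10-deficient and -0.82 ± 0.05 in WT, and the difference did not pass the test. The order turned without 5 h, with -1.29 and -1.11. Its levels at 5 h were 1.41 and 1.71 scaled CPM in libraries labelled Nat10-deficient and 1.35 and 1.45 in libraries labelled WT. Zfp830, which acts in genome maintenance during cell division, fell with slopes of -0.35 ± 0.02 and -0.89 ± 0.05. Zfp622, which takes part in the maturation of the large ribosomal subunit, fell with slopes of -0.32 ± 0.03 and -1.18 ± 0.07, to 6.23 and 5.73 scaled CPM at 5 h in libraries labelled Nat10-deficient and 0.169 and 0.413 in libraries labelled WT. The adjusted p-values ranged from 9.51e-48 to 8.42e-27 in libraries labelled Nat10-deficient and from 2.23e-48 to 3.60e-37 in WT. Zfp622 and Zfp830 were near the floor of counts in WT at 5 h, and without 5 h the gap between genotypes was gone or turned. The slopes of Zfp622 were then -0.46 in libraries labelled Nat10-deficient and -0.51 in WT, a difference of 0.05 that did not pass the test. Those of Zfp830 were -0.76 and -0.46, a difference of -0.30 that did, against 0.55 with 5 h.

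The 3′ UTRs of some of these members hold AUUUA elements, and short windows around 1 site each are shown because they mark the sequence feature named for unstable mRNAs. The windows of 29 bases are written as DNA from the GENCODE vM21 transcripts of build GRCm38, with ATTTA in capitals. The first 4 are from members that fell steeply in both genotypes.
Zfp597: aaaagcaacagtATTTAttaaaatagaat
Zfp281: gcaacttttcatATTTAgtttattttgtt
Zfp655: gcaaacggtgaaATTTAaccactctattt
Zfp830: gtgtgcggtgctATTTAttataaaatgtt
The other 2 are from Zfp106, which rose over 0 to 5 h, and Zfp706, whose slope was -0.08 in both genotypes.
Zfp106: cctgtaagtgacATTTAagcagtttctaa
Zfp706: gtaaaataactcATTTAataaagtagtgc
The annotated 3′ UTR of Zfp597 held 14 ATTTA sites, that of Zfp281 5, that of Zfp655 4 and that of Zfp830 2, beside 4 in Zfp106 and 6 in Zfp706. At least 1 ATTTA, searched on the transcript strand and with overlaps counted, stood in 77.3% of the members and 66.5% of genes of at least 5 CPM, at a median of 1.61 and 1.30 sites per kb. Across 180 members the number of sites per kb had a Spearman rho of -0.04 with the slope in libraries labelled Nat10-deficient and -0.07 with that in WT.

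The 10 members with the highest mean CPM, a rank that does not allow for length, had slopes over 0 to 5 h between -0.26 and 0.17. Zfp207, also called BuGZ, which loads Bub3 at the spindle, had 235 and 244, 231 and 216, 210 and 206, and 247 and 249 scaled CPM at the 4 times in libraries labelled Nat10-deficient, and 197 and 196, 185 and 189, 120 and 112, and 136 and 127 in libraries labelled WT. Its level in the libraries labelled Nat10-deficient stayed in a narrow band and its slope of 0.01 did not pass the test, while in WT it fell with a slope of -0.14 ± 0.01 (adjusted p = 1.25e-38), a difference of 0.15 ± 0.01 (adjusted p = 6.03e-31). Without 5 h both slopes passed, at -0.07 and -0.27. Zfp706, known from the exit of embryonic stem cells from self-renewal, fell with a slope of -0.08 ± 0.01 in each genotype, to 150 and 161 scaled CPM at 5 h in libraries labelled Nat10-deficient and 160 and 185 in libraries labelled WT, against 199 and 203, and 194 and 188, at 0 h. Without 5 h its slopes were -0.07 and -0.25. Zfp422, Zfp263 and Zfp266 fell with slopes of -0.21, -0.22 and -0.15 log2 per hour in libraries labelled Nat10-deficient and of -0.25, -0.21 and -0.26 in WT, each with an SE of 0.01. Without 5 h they were -0.26, -0.13 and -0.40 in libraries labelled Nat10-deficient and -0.54, -0.22 and -0.35 in WT. Zfp330, Zfp410, an activator of Chd4, and Zfp445, which keeps imprints, had slopes of -0.07 to -0.11 in libraries labelled Nat10-deficient and -0.10 to -0.16 in WT, and without 5 h of -0.08 to -0.27 and -0.18 to -0.40. Zfp869 fell with a slope of -0.16 in libraries labelled Nat10-deficient, and its slope of -0.01 in WT did not pass the test. Without 5 h neither passed, at -0.01 and -0.04.

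**Figure D2:**
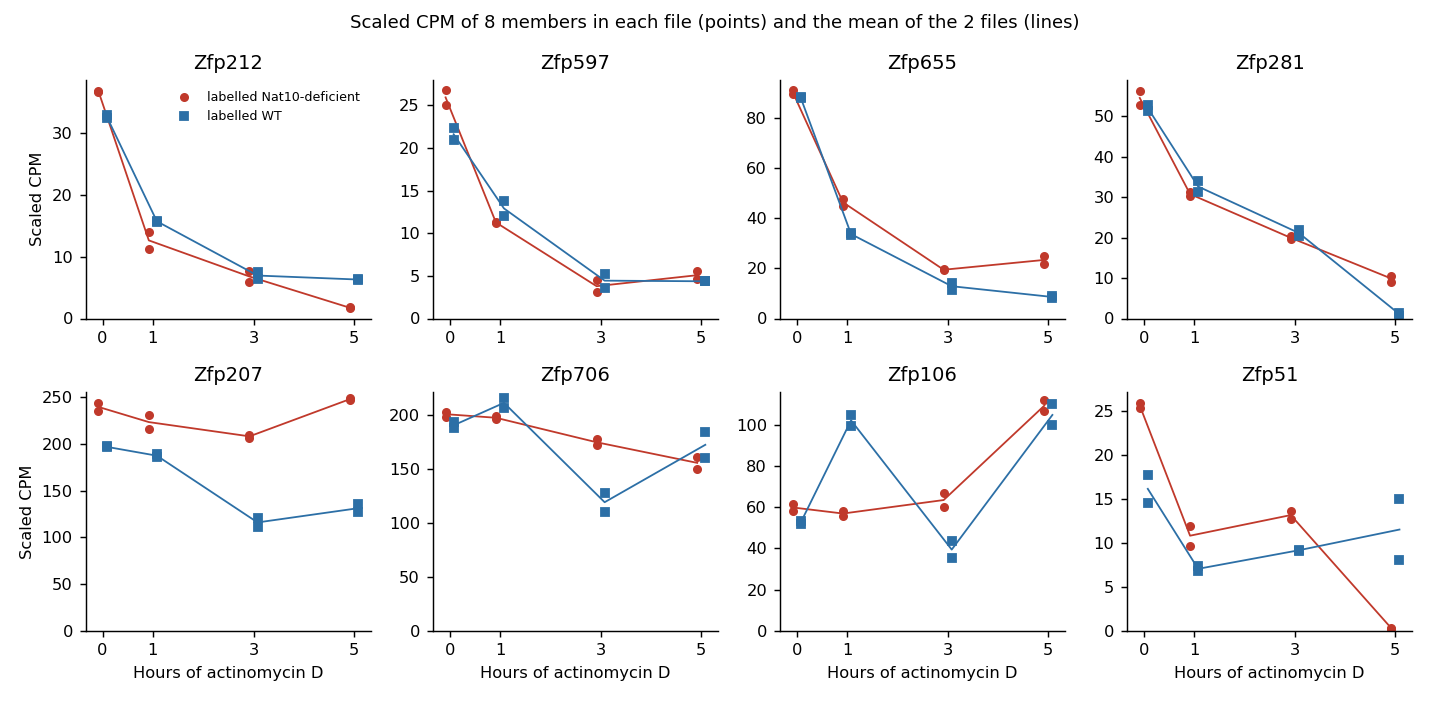
Scaled CPM (vertical axes, linear and from 0) by hours of actinomycin D for 8 members, with libraries labelled Nat10-deficient as circles and WT as squares, 1 point per file and lines through the means. Zfp212, Zfp597, Zfp655 and Zfp281 fall in both genotypes, Zfp207 stays between 206 and 249 in libraries labelled Nat10-deficient and is lower at 3 and 5 h than at 0 h in WT, Zfp706 has a slope of -0.08 in both, Zfp106 is highest at 5 h in libraries labelled Nat10-deficient, and Zfp51 drops to 0.257 and 0.305 there at 5 h.

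Zfp106, Zfp692 and Zfp157 were the only members called higher in both genotypes, and all 3 fell on the ERCC scale. Zfp106, an RNA-binding protein needed in muscle and nerve, had 58 and 61.6, 55.8 and 57.9, 66.7 and 60.1, and 112 and 106 scaled CPM in libraries labelled Nat10-deficient, and 51.8 and 53.1, 105 and 99.4, 43.3 and 35.4, and 99.5 and 110 in libraries labelled WT. The rise in the libraries labelled Nat10-deficient lay at 5 h, whereas WT went up at 1 h, down at 3 h and up again at 5 h, and a straight line describes the WT course poorly. Its slopes were 0.17 ± 0.01 (adjusted p = 1.44e-44) and 0.08 ± 0.01 (adjusted p = 6.84e-10), and without 5 h the first was 0.03 and did not pass. The WT slope was -0.21 without 5 h and -0.07 when libraries were scaled on a list of long-lived reference mRNAs. Zfp692 had slopes of 0.13 ± 0.02 and 0.18 ± 0.02, and Zfp157 0.21 ± 0.04 and 0.12 ± 0.05 (adjusted p = 1.30e-07 and 0.0236). With long-lived mRNAs as the scale the slope of Zfp692 in libraries labelled Nat10-deficient was -0.02 and that of Zfp157 in WT -0.03. Without 5 h the WT slopes of Zfp692 and Zfp157, 0.02 and 0.09, no longer passed the test.

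Slopes of the 186 members ran from -1.15 to 0.21 log2 per hour in libraries labelled Nat10-deficient and from -2.20 to 0.37 in libraries labelled WT. Across the members the slopes of the genotypes had a Spearman rho of 0.15 (186 members, each gene measured in both sets of libraries). Without the 13 members that had a 0 in a WT file at 5 h, it was 0.14. The order of the members by slope was thus only weakly shared between the genotypes.

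**Figure D3:**
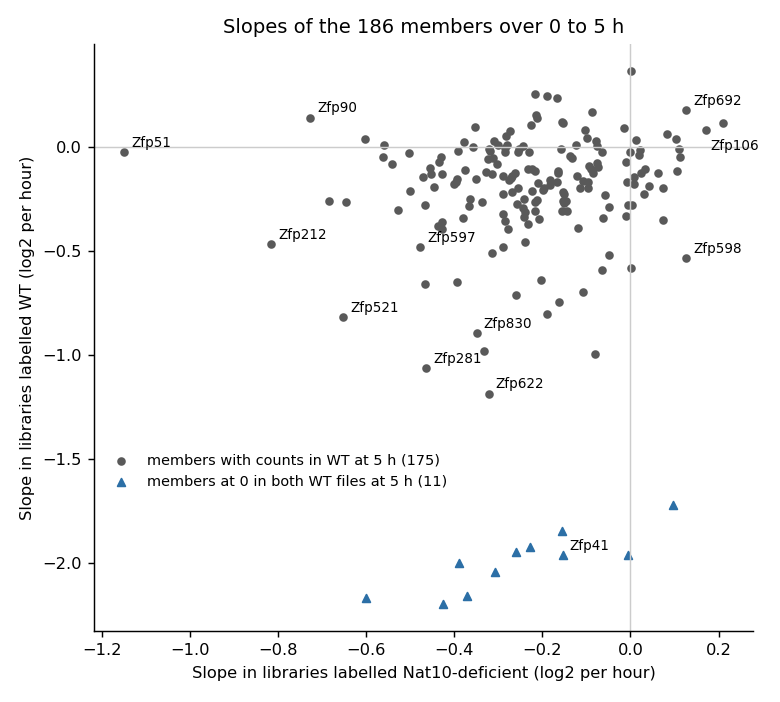
Slope over 0 to 5 h in libraries labelled Nat10-deficient (horizontal) against WT (vertical), both in log2 per hour relative to other genes, 1 point per member. Most points lie below 0 on both axes, and the 11 triangles are members at 0 in both WT files at 5 h, whose WT slopes at the foot of the plot depend on the prior count of the fit.

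Counted by role, the lists were made with earlier results of these data known. Over all members 80.6% fell in libraries labelled Nat10-deficient and 68.3% in WT, against 31.8% and 31.2% of all genes tested, and the counts of the short lists below are too small to be read against these shares. The RNA and ribosome-linked list had 8 members, of which 5 fell and 3 rose in libraries labelled Nat10-deficient and 7 fell and 1 rose in WT. Besides Zfp622 and Zfp106 it holds Zfp638, known from silencing of unintegrated retroviral DNA, with slopes of -0.28 ± 0.02 and -0.39 ± 0.02 (-0.43 and -0.42 without 5 h), and Zfp598, the ubiquitin ligase of collided ribosomes. Zfp598 had 12.2 and 10.8, 9.15 and 11.6, 8.38 and 7.97, and 19.9 and 18.5 scaled CPM in libraries labelled Nat10-deficient, and 12.4 and 12.8, 9.03 and 8.91, 5.38 and 7.79, and 1.18 and 2.48 in libraries labelled WT. The genotypes were alike at 0 h and far apart at 5 h. Its slopes were 0.13 ± 0.02 and -0.53 ± 0.05 (difference 0.66 ± 0.06, adjusted p = 3.23e-23), but the first was -0.16 without 5 h, -0.02 with long-lived mRNAs as the scale and -0.36 on the ERCC scale. Without 5 h the WT slope was -0.30 and the difference of 0.14 did not pass the test. Of 4 members linked to silencing of retroelements and imprints (Zfp445, Zfp568, Zfp809 and Zfp932), 3 fell in libraries labelled Nat10-deficient and 4 in WT. Of 19 chromatin and transcription factors, 16 (84.2%) fell and 2 rose in each genotype. Of 3 members linked to cell division (Zfp207, Zfp367 and Zfp830), 2 fell in libraries labelled Nat10-deficient and 3 in WT. In all 3 the slope difference was called higher in libraries labelled Nat10-deficient. Of all genes tested 24.5% were so called, and of genes of at least 5 CPM 43.4%. Without 5 h the difference was still called higher for Zfp207 and Zfp367, at 0.20 and 0.12, and that of Zfp830 was -0.30.

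The corepressor machinery of KRAB proteins is no part of the members and is given beside them. Of its 19 genes measured, 5 (26.3%) fell and 9 rose in libraries labelled Nat10-deficient, and 13 (68.4%) fell and 3 rose in WT. The members' shares were 80.6% and 68.3% and those of all genes tested 31.8% and 31.2%, and no difference between these groups of genes was tested. Trim28, the partner of the KRAB domain, had 61.5 and 64.7, 66.5 and 59.1, 42.9 and 45.4, and 139 and 125 scaled CPM in libraries labelled Nat10-deficient, and 64.5 and 62.0, 46.7 and 49.4, 46.2 and 50.7, and 34.8 and 34.5 in libraries labelled WT. Its levels were alike at 0 h and differed most at 5 h, with slopes of 0.17 ± 0.01 and -0.15 ± 0.02, but without 5 h of -0.18 and -0.11. Atf7ip, the partner of Setdb1, fell in both genotypes, with slopes of -0.49 ± 0.01 and -0.22 ± 0.01, and of -0.56 and -0.46 without 5 h.

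The slope itself was lower in libraries labelled Nat10-deficient than in WT in 71 members (38.2%) and higher in 61 (32.8%). Of all genes tested 24.2% and 24.5% were so called, and of genes of at least 5 CPM 32.8% and 43.4%. The median difference was near 0 for the members and 0.02 for all genes. Without 5 h 50 members were called lower and 60 higher, of which 34 and 31 were called the same way with 5 h. With the files of a group summed, no member and no gene was called, and 20 members and 1853 genes had an unadjusted p under 0.05. Lower slopes in libraries labelled Nat10-deficient were steepest in Zfp51, Zfp90, Zfp516 and Zfp213. Zfp51 had 25.4 and 25.9, 9.68 and 12, 13.6 and 12.8, and 0.257 and 0.305 scaled CPM in libraries labelled Nat10-deficient, and 17.8 and 14.6, 6.79 and 7.33, 9.14 and 9.21, and 15.0 and 8.06 in libraries labelled WT. Its last level in the libraries labelled Nat10-deficient rests on 4 and 5 counts. The slopes were -1.15 ± 0.05 and -0.02, a difference of -1.13 ± 0.07 (adjusted p = 2.69e-38), and without 5 h they were -0.25 and -0.21 and the difference of -0.05 did not pass the test. Zfp90, a KRAB protein, had slopes of -0.73 ± 0.05 and 0.14 ± 0.04, with 0.578 and 0.731 scaled CPM at 5 h in libraries labelled Nat10-deficient against 9.28 and 10.7 in libraries labelled WT, although its WT slope was -0.02 without 5 h and below 0 on the ERCC scale and with long-lived mRNAs as the scale. Zfp516 and Zfp213 had slopes of -0.60 ± 0.05 and -0.56 ± 0.03 in libraries labelled Nat10-deficient, and of 0.04 and 0.01 in WT, which did not pass the test. That of Zfp516 in WT was -0.28 without 5 h and passed. The differences of Zfp90, Zfp516 and Zfp213 were -0.87, -0.64 and -0.57, and without 5 h -0.55, -0.52 and -0.55.

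The largest differences in the other direction came from members without any count in WT at 5 h. In both WT files at 5 h, 11 members were at 0: Zfp553, Zfp41, Zfp81, Zfp184, Zfp629, Zfp40, Zfp992, Zfp991, Zfp420, Zfp867 and Zfp59. The files labelled Nat10-deficient held 17 to 177 counts of each of them at 5 h. No member was at 0 in any file labelled Nat10-deficient or in WT at 0 and 1 h. Zfp553 had 28.5 and 28.8, 20.3 and 19.4, 7.84 and 6.86, and 8.61 and 9.08 scaled CPM in libraries labelled Nat10-deficient, and 20.5 and 21.0, 20.2 and 19.0, 5.91 and 8.65, and 0 and 0 in libraries labelled WT. Its level at 0 h was higher in libraries labelled Nat10-deficient, where the files did not overlap with WT, and the genotypes were close at 1 and 3 h. With 3 counts over both WT files taken as the floor (0.279 scaled CPM), Zfp41 was at least 38.0-fold higher in libraries labelled Nat10-deficient at 5 h, Zfp553 at least 31.8-fold, Zfp867 at least 10.7-fold, and Zfp59 at least 4.94-fold. All 11 were called higher at 5 h and in the slope difference, but they were picked for their 0 in WT at 5 h. These calls thus follow from the choice and are no further result. Their fitted slopes depend on the prior count and are no bound. The WT files at 5 h had the highest immunoglobulin share and the fewest genes detected, down to 20974. Genes with at least 20 counts over both files numbered 13318 there, against 15944, 16419 and 16528 in WT at 0, 1 and 3 h. The share of other genes at 0 in both WT files at 5 h was not counted, so the zeros cannot be read as particular to the members. Of the 11, Zfp991, Zfp59 and Zfp992 share 87.0%, 52.4% and 43.7% of their 50-base words with other genes, and such reads were not counted.

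**Figure D4:**
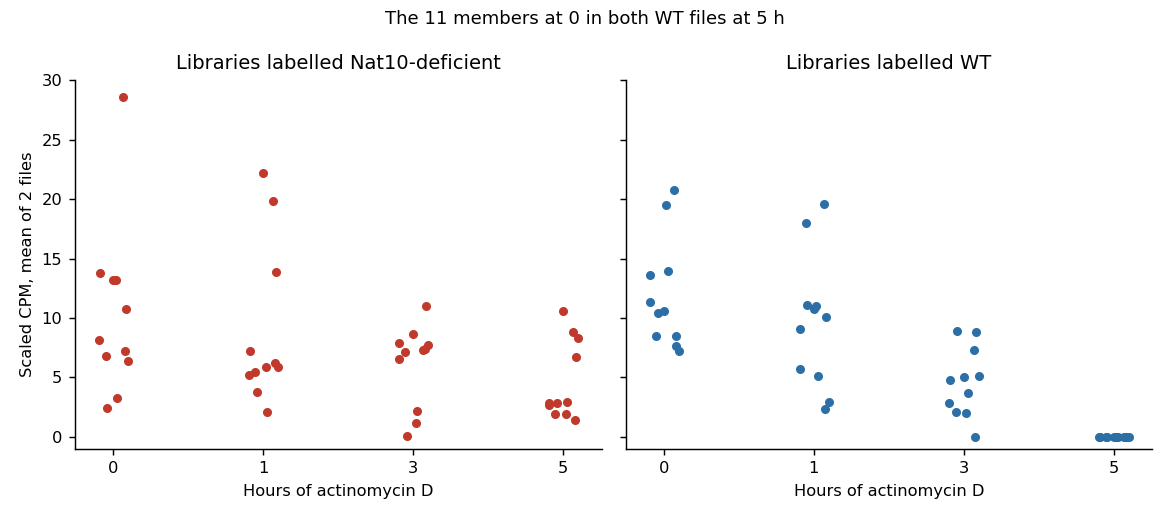
Scaled CPM (mean of 2 files) of the 11 members at 0 in both WT files at 5 h, at each hour of actinomycin D, in libraries labelled Nat10-deficient (left) and WT (right), 1 point per member. In WT the points lie between 7.24 and 20.7 at 0 h and all lie at 0 at 5 h, while in libraries labelled Nat10-deficient every point is above 0 at 5 h.

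Within the first hour, 97 members (52.2%) fell and 31 (16.7%) rose in libraries labelled Nat10-deficient, against 26.7% and 23.2% of all genes tested. In libraries labelled WT 97 (52.2%) fell and 41 (22.0%) rose, against 31.6% and 29.7%. Among genes of at least 5 CPM 35.3% fell and 29.2% rose in libraries labelled Nat10-deficient, and 46.7% and 25.5% in WT. The members' shares in WT were thus near those of genes of that level. The members' median change was -0.31 and -0.29 log2 units, against -0.02 and -0.14 for genes of at least 5 CPM. The drop was steepest for Zfp142 in libraries labelled Nat10-deficient, at 3.19 and 3.04 scaled CPM at 1 h against 18.4 and 19.0 at 0 h (log2 -2.58 ± 0.15, adjusted p = 2.54e-40). It stood at 7.71 and 7.56 scaled CPM at 5 h. Zfp746, also called PARIS, a substrate of parkin, fell by 1.71 ± 0.18 log2 units there. In WT, Zfp84 fell by 2.46 ± 0.12 log2 units to 5.96 and 6.50 scaled CPM at 1 h, against 35.8 and 32.5 at 0 h, and was at 18.1 and 18.6 at 5 h. Zfp608 fell by 2.19 ± 0.12 log2 units in WT. Since levels of Zfp142 and Zfp84 were higher again at 5 h, these courses were not steady declines.

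In 27 members (14.5%) the first hour was called in opposite directions with files that did not overlap, against 12.7% of all genes tested and 16.8% of genes of at least 5 CPM, so the share of members was near the background. It was lower in libraries labelled Nat10-deficient and higher in WT in 16 of them, and the other way round in 11, against 6.21% and 6.51% of all genes tested and 6.11% and 10.7% of genes of at least 5 CPM. Zfp850, a KRAB protein, had the widest gap. It had 13.8 and 14.8, 3.03 and 2.72, 3.38 and 2.58, and 4.18 and 3.53 scaled CPM in libraries labelled Nat10-deficient, and 2.38 and 2.09, 11.7 and 12.7, 1.21 and 0.283, and 8.94 and 8.27 in libraries labelled WT. The WT files swung up, down and up again. The first hour was -2.31 ± 0.18 (adjusted p = 3.35e-28) and 2.43 ± 0.20 (adjusted p = 1.68e-25).

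Levels between the genotypes at a given time went both ways. At 0 h, 60 members were lower and 62 higher in libraries labelled Nat10-deficient than in WT, against 24.2% and 36.0% of all genes tested. At 1 h 67 were lower and 57 higher, against 31.8% and 32.4%. At 3 h 58 were lower and 71 higher, against 37.0% and 30.4%, and with DESeq2 74 were lower and 42 higher. At 5 h 80 were lower and 57 higher, against 30.1% and 34.2%. The members' shares at the 4 times were 32.3%, 36.0%, 31.2% and 43.0% lower, and 33.3%, 30.6%, 38.2% and 30.6% higher. Among genes of at least 5 CPM they were 26.9%, 31.3%, 25.3% and 33.6% lower, and 48.1%, 47.6%, 52.3% and 49.7% higher. Scaled on long-lived mRNAs, the split at 0 h was 113 lower and 29 higher. With the files of a group summed, straight lines over the 4 times were fitted, and the value at 0 h was the gap between them. It is thus not the same comparison. No member and no gene was called for that gap, and 2 members and 1240 genes had an unadjusted p under 0.05. The median difference was 0.03, -0.07, 0.08 and -0.21 log2 units at 0, 1, 3 and 5 h for the members, and 0.15, 0.15, 0.32 and 0.28 for genes of at least 5 CPM. Over the 4 times, 93 of the 186 members were called in both directions and 3 at no time, against 42.1% and 2.98% of all genes tested and 39.7% and 0.577% of genes of at least 5 CPM.

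**Figure D5:**
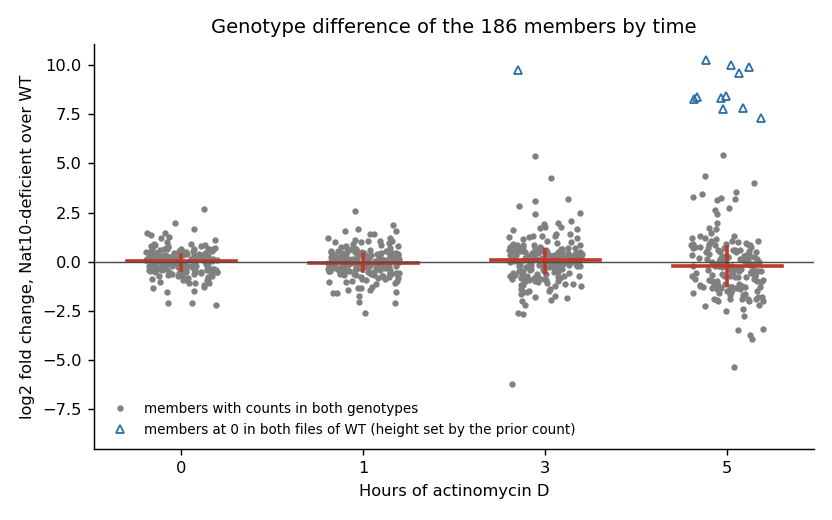
Log2 fold change of libraries labelled Nat10-deficient over WT for the 186 members (points, spread sideways at random) at each hour of actinomycin D, with the median as a horizontal and the quartiles as a vertical bar. The medians stay between -0.21 and 0.08 while the spread widens with time, and triangles mark members at 0 in both WT files, 1 at 3 h and 11 at 5 h.

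At all 4 times 8 members were called higher in libraries labelled Nat10-deficient (Zfp207, Zfp422, Zfp410, Zfp637, Zfp367, Zfp35, Zfp771 and Zfp41) and 7 lower (Zfp869, Zfp1, Zfp292, Zfp111, Zfp239, Zfp467 and Zfp612). These are 4.30% and 3.76% of the members, beside 8.9% and 2.91% of all genes tested, and 21.2% and 5.0% of genes of at least 5 CPM. Zfp207 was higher by 0.28 ± 0.03, 0.25 ± 0.04, 0.84 ± 0.05 and 0.92 ± 0.05 log2 units at the 4 times (adjusted p from 3.21e-51 to 4.90e-11), although scaled on long-lived mRNAs it was at -0.06 and -0.24 at 0 and 1 h. Zfp869 was lower by 0.53, 0.23, 0.38 and 1.23 log2 units (adjusted p from 4.40e-34 to 0.000716). Zfp612, a KRAB protein, had 1.96 and 2.05, 3.78 and 3.41, 0.846 and 1.03, and 1.03 and 0.914 scaled CPM in libraries labelled Nat10-deficient, and 9.43 and 8.92, 10.6 and 8.58, 5.91 and 5.39, and 12.1 and 8.27 in libraries labelled WT. The genotypes did not overlap at any time, with log2 differences of -2.19 ± 0.20, -1.42 ± 0.19, -2.58 ± 0.34 and -3.40 ± 0.30. These differences rest on the labels of libraries in which Nat10 mRNA was higher under the Nat10-deficient label at 0, 3 and 5 h and lower at 1 h.

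Members with and without the KRAB pattern were compared as a description. The 74 KRAB members had a median coding GC content of 42.1%, against 53.3% in the 111 without it. The median slopes of KRAB members were -0.23 in libraries labelled Nat10-deficient and -0.14 in WT, with 57 (77.0%) and 47 (63.5%) falling. In members without the pattern the medians were -0.22 and -0.20, with 93 (83.8%) and 79 (71.2%) falling. Both classes fell in both genotypes. At 5 h, 38 KRAB members (51.4%) were lower and 18 (24.3%) higher in libraries labelled Nat10-deficient than in WT (median log2 difference -0.51). Of the others, 42 (37.8%) were lower and 39 (35.1%) higher (median -0.04). Of all genes tested 30.1% were lower and 34.2% higher, and of genes of at least 5 CPM 33.6% and 49.7%. At 0, 1 and 3 h the median differences were -0.07, -0.25 and 0.02 in KRAB members, and 0.04, 0.04 and 0.11 in the others. Spearman's rho of the slopes with the number of fingers was -0.16 in libraries labelled Nat10-deficient and 0.09 in WT (185 members), and with 3′ UTR length -0.12 and -0.15. The members' median 3′ UTR of 1235 bases was longer than the 972 of genes of at least 5 CPM. For 13 members over 20% of the 50-base words occur in other genes, so their counts are uncertain.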

How the data were processed

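Polyadenylated RNA was sequenced from 16 samples (Smart-seq II with ERCC spike-ins, per the labels). The deposited files hold counts of fragments per gene as whole numbers, made by the authors with featureCounts 1.6.3 on the Ensembl 105 annotation plus ERCC, without regard to strand and without multiply mapped reads, per the file headers. The submitters' processing notes name STAR, featureCounts, DESeq2 and GRCm39. Of 55414 gene identifiers, 52081 (94.0%) matched a symbol. The 92 ERCC entries stayed out of library sizes and tests.

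Groups came from the labels. Counts were tested with edgeR 4.0.16 in R 4.3.3 (quasi-likelihood F test, 8 group means over 16 files, TMM factors, filterByExpr, which kept 25081 genes and all 186 members), with Benjamini-Hochberg adjustment over all genes and a threshold of 0.05. A slope is the linear contrast over 0, 1, 3 and 5 h, in log2 per hour, and the slope difference is the interaction. Standard errors (SE) were worked back from the F statistic, dividing the size of the log2 value by its square root. The tests were checked on simulated data with independent files and no change of cell mixture. That check does not cover files that are technical repeats or samples whose mixture shifts. The reads carry no molecular identifiers, so amplified copies count as separate fragments and a floor of 3 counts covers counting error alone.

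Named genes are a selection from those that a rule gives. The rule takes the 10 members with the highest mean CPM, members on a role list and the members nearest the CPM minimum. It also takes, per comparison, the 4 with the largest change in each direction past the threshold, with separated files except for the slope difference. Among those not described are the 4 that the rule gives for rising slopes in WT, Zfp808, Zfp53, Zfp169 and Zfp235. Zfp597, Zfp655, Zfp184, Zfp992, Zfp637, Zfp35, Zfp1, Zfp111 and Zfp239 fall outside that rule and were chosen after their values were seen. The members, lists, rule and comparisons were chosen with earlier results of these data known. Replicate numbers did not pair the samples (r of -0.02 to 0.04 over 28 pairs of groups). Alternatives were ERCC, long-lived-mRNA, immunoglobulin-free and median-ratio scaling, DESeq2 1.42.0, no count filter, a replicate block, summed files, leaving out each file, and leaving out 5 h. Sequence features came from GENCODE vM21 transcripts (GRCm38) by gene identifier, and no coordinate of that build is given. Gene coordinates are those of the file headers.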

Additional observations from a re-analysis of the deposited data

Results flagged for a closer look

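Slopes differed between the genotypes in both directions. The slope was called lower in libraries labelled Nat10-deficient than in WT in 71 members (38.2%) and higher in 61 (32.8%). Of genes of at least 5 CPM 32.8% and 43.4% were so called. Without 5 h, 34 and 31 of these members were called the same way. These calls come from the interaction in edgeR's quasi-likelihood test. In the fit of summed files none passed.

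The largest differences with the lower slope in libraries labelled Nat10-deficient were -1.13 log2 per hour in Zfp51, -0.87 in Zfp90, -0.64 in Zfp516 and -0.57 in Zfp213. Without 5 h they were -0.05, -0.55, -0.52 and -0.55.

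The largest in the other direction were 1.95 in Zfp867, 1.82 in Zfp991, 1.81 in Zfp41 and 1.79 in Zfp553. All 4 had no count in WT at 5 h, so these sizes depend on the prior count. Without 5 h the values were 0.42, 0.19, 0.10 and -0.13, and of these Zfp867 passed the test.

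The first hour was called in opposite directions in the genotypes in 27 members, which is 14.5% of them, beside 12.7% of all genes tested. The difference between the genotypes in that hour was not tested.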

How the results depend on the processing

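With the files of each group summed, members called lower and higher numbered 1 and 0 for the slope in libraries labelled Nat10-deficient, 7 and 0 for the slope in WT, 0 and 0 for the slope difference, and 0 and 0 at 0 h, and 54 of 60 named gene values no longer passed while none reversed. That fit has 8 libraries and holds the spread around a straight line in its error. Its value at 0 h is the gap between the lines of the genotypes there, not a contrast of the libraries at 0 h. On the ERCC scale no slope was called higher in either genotype (0 and 0), the slope difference was higher in 39 members, the first hour was lower and higher in 183 and 0 members in libraries labelled Nat10-deficient and 162 and 6 in WT, and members were lower and higher between genotypes in 0 against 186 (0 h), 0 against 186 (1 h), 0 against 185 (3 h) and 0 against 185 (5 h). That scale moves the median gene by 5.19 to 6.24 log2 units between genotypes. Scaled on long-lived mRNAs, 1 slope was called higher in libraries labelled Nat10-deficient and 4 in WT, and members were lower and higher in 113 against 29 (0 h), 127 against 17 (1 h) and 115 against 22 (3 h), with the median gene at -0.06, -0.36 and -0.75 log2 units. Median-ratio factors called 20 slopes higher in libraries labelled Nat10-deficient. At 3 h they called 75 members lower and 43 higher, and DESeq2 called 74 lower and 42 higher. The cause of these shifts was not tested.

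Leaving out 1 file gave 145 to 151 members lower and 10 to 18 higher for the slope in libraries labelled Nat10-deficient, 119 to 127 and 13 to 16 for WT, 61 to 72 and 58 to 69 for the slope difference, 87 to 102 and 20 to 34 for the first hour in libraries labelled Nat10-deficient, and 90 to 99 and 35 to 47 for WT. Between genotypes it gave 51 to 60 lower with 50 to 69 higher (0 h), 50 to 67 with 46 to 62 (1 h), 47 to 59 with 57 to 71 (3 h), and 62 to 80 with 54 to 65 (5 h). The count of 20 came without replicate 2 of the libraries labelled Nat10-deficient at 1 h. Without 1 file the WT slope of Zfp157 no longer passed in 4 of the fits. With the replicate number as a block the counts were 150 and 13, 127 and 16, and 71 and 61 for the slopes and their difference, and the block changed no other count by over 1.5 times. The numbers of the files do not pair samples.

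Single genes that changed sign on the ERCC scale were the slopes of Zfp106, Zfp692, Zfp157 and Zfp598 in libraries labelled Nat10-deficient (-0.32, -0.36, -0.28 and -0.36) and of Zfp106, Zfp692, Zfp157 and Zfp90 in WT (-0.31, -0.22, -0.28 and -0.25). The genotype differences of Zfp869 were 5.61, 5.51, 5.08 and 4.42 at 0, 1, 3 and 5 h there, those of Zfp612 3.94, 4.31, 2.86 and 2.22, and those of Zfp850 3.65 (1 h) and 4.47 (5 h). With long-lived mRNAs the slopes of Zfp692 and Zfp598 in libraries labelled Nat10-deficient were -0.0213 and -0.0214, those of Zfp106 and Zfp157 in WT -0.0655 and -0.0320, that of Zfp90 in WT -0.0044, and Zfp207 was at -0.0569 and -0.24 at 0 and 1 h. Without 5 h the slope of Zfp598 in libraries labelled Nat10-deficient was -0.16, those of Zfp106 and Zfp90 in WT -0.21 and -0.0229, and the slope differences of Zfp553 and Zfp281 -0.13 and -0.0446. Without 5 h the difference of Zfp830 was -0.30, and 34 of the 71 lower and 31 of the 61 higher slope differences were called the same way. Members at or near 0 counts limit what can be read at 5 h in WT.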
